A study of Mus musculus with 50 samples.

Results

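Creatine kinases, the genes that supply creatine, adenylate kinase and the AMP deaminases were followed in mouse gastrocnemius muscle from 8 to 28 months of age. The set held 9 genes, chosen by symbol for these roles: Ckm, Ckb, Ckmt2, Slc6a8, Gatm, Gamt, Ak1, Ampd1 and Ampd3. All 9 were found among the 23880 genes of the deposited tables, and all 9 were among the 12586 genes that passed the filter of 1 CPM (a count scaled to the size of its library) in at least 8 mice. Relative to 8 months-old mice, 28 months-old mice had 4.23-fold more Ampd3 mRNA, and had less mRNA of Gamt, Ckmt2, Ckb and Ak1. Without a single 28 months-old mouse that stood apart, the log2 fold change of Ampd3 was 1.48 in place of 2.08. The level of Ckm, by far the most abundant gene of the set, differed by a log2 fold change of -0.02.

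RNA was sequenced from the gastrocnemius of 50 male wild type C57BL/6JRj mice, with 8 mice each at 8, 18, 22 and 24 months and 9 mice each at 26 and 28 months. All mice were caged singly and ate the AIN93M diet. Mice of 8 and 18 months had a short time on this diet, while mice of 22 to 28 months had eaten it since they were between 18 and 19 months of age, and mice with overt illness or tumors had been left out. Age and diet history therefore cannot be told apart when mice of 22 to 28 months are compared with mice of 8 months. The comparisons of 18 with 8 months and of 28 with 22 months each lie within a single diet scheme. From 22 to 28 months the time on the diet rose with age, so age and time on the diet cannot be told apart there. Each library was made from whole muscle, so fewer cells of a type and less RNA per cell cannot be told apart. Libraries held between 13607229 and 21267375 counts. At 8 months the fast fibre marker genes summed to between 163100 and 191100 TPM (a level per length of transcript). Gene positions are those of GENCODE vM21 on build GRCm38.

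Creatine kinases move a phosphate group between ATP and creatine. In muscle, the mitochondrial form (Ckmt2) charges creatine at the site of ATP synthesis, and the cytosolic forms (Ckm in muscle, Ckb in brain and other tissues) use phosphocreatine to restore ATP beside the contractile filaments and ion pumps. Gatm makes guanidinoacetate from arginine and glycine, and Gamt methylates guanidinoacetate to creatine. Both steps run mostly outside muscle, and creatine enters muscle fibers through the transporter Slc6a8. When ADP builds up, adenylate kinase (Ak1 in the cytosol of muscle) turns pairs of ADP molecules into ATP and AMP, and AMP deaminase removes the AMP as IMP. Ampd1 is the form of adult skeletal muscle, and Ampd3 is the form first described in red blood cells, which is also found in other tissues.

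Promoters are shown for the 5 genes that changed between 8 and 28 months and for Ckm, the most abundant gene of the set, which did not pass. For Ak1 and Ampd3, which had several windows, a single window with a motif is printed. The printed window of Ampd3 is the only one of its windows with a motif. RefSeq windows of 300 bases around the annotated starts (build GRCm38.p6) were found for 7 of the 9 genes, 12 windows in all, but not for Slc6a8 and Ampd1. Capitals mark 3 motifs searched on both strands: CAGCTG, an E-box bound by myogenic factors; AAGGTCA, bound by estrogen-related receptors; and a relaxed form of the MEF2 site, in which CTA and TAG stand 4 bases of any kind apart. The motifs were chosen after the data were seen. CAGCTG occurred in 16.3% of all 32851 windows, AAGGTCA in 4.72% and the relaxed MEF2 motif in 3.69%.
Ckm, chr7:19410844-19411143, + strand: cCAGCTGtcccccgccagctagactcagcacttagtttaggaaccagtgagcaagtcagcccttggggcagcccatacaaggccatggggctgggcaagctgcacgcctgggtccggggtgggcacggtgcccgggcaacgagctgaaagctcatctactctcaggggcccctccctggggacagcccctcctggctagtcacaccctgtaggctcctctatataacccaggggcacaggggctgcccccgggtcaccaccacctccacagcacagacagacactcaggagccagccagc
Ckmt2, chr13:91876836-91877135, - strand: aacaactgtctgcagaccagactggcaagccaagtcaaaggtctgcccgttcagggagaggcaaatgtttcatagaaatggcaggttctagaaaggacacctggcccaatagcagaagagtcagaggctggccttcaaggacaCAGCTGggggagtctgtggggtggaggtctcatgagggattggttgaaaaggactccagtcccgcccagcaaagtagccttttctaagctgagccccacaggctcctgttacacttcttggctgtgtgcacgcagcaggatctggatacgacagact
Ckb, chr12:111672289-111672588, - strand: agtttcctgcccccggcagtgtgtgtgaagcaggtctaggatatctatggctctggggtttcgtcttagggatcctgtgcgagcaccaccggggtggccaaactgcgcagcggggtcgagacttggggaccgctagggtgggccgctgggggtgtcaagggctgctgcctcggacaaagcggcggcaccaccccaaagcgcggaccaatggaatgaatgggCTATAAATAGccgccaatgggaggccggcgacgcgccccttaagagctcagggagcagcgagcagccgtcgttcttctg
Gamt, chr10:80260963-80261262, - strand: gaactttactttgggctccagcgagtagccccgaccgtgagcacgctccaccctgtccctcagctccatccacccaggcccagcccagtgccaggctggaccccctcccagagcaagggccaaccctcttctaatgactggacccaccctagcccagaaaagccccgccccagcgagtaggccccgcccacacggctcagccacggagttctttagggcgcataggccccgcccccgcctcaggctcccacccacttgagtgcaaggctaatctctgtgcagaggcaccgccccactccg
Ak1, chr2:32625187-32625486, + strand: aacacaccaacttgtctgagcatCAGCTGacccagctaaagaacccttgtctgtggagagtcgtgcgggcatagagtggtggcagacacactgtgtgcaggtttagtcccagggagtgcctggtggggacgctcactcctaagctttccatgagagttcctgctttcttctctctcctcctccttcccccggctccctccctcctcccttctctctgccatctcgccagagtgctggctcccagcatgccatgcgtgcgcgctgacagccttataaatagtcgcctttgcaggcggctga
Ampd3, chr7:110772354-110772653, + strand: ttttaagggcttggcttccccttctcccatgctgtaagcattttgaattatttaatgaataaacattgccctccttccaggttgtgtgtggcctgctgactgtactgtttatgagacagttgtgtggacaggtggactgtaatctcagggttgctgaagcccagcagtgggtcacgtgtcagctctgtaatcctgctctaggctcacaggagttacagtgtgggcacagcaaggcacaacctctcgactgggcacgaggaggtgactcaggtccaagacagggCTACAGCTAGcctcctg
CAGCTG was found in the windows of Ckm and Ckmt2 and in 2 of the 4 windows of Ak1, and AAGGTCA was found in a further window of Ak1. The relaxed MEF2 motif was found in the window of Ckb and in 1 of the 3 windows of Ampd3. The windows of Gamt and Gatm held none of the 3 motifs. These are matches of letters and not measured binding sites.

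Per length of transcript, the genes spanned more than 3 orders of magnitude. Over all 50 mice, Ckm stood at 23900 ± 2322 TPM (mean ± SD), above Ak1 at 1466 ± 255 TPM, Ckmt2 at 1357 ± 496 TPM and Ampd1 at 816 ± 147 TPM. Slc6a8 followed at 95.5 ± 17.8 TPM, and Ampd3 (18.65 ± 23.3 TPM), Gamt (13.4 ± 5.45 TPM), Gatm (7.05 ± 2.43 TPM) and Ckb (6.69 ± 2.26 TPM) were low. Ckm was above Ak1 in all 50 mice and Ampd1 was above Slc6a8 in all 50, without overlap of the ranges. Ak1 exceeded Ckmt2 in 33 of 50 mice, Ampd3 exceeded Gamt in 23 of 50 and Gatm exceeded Ckb in 24 of 50, so the order of these neighbours was not fixed across mice. Between the ages, the order changed at these same places. At 8 months Gamt (17.0 ± 3.92 TPM, n = 8) lay above Ampd3 (9.08 ± 2.39 TPM), and at 28 months Ampd3 (42.1 ± 48.4 TPM, n = 9) lay above Gamt (7.74 ± 4.85 TPM) in 8 of 9 mice.

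**Figure D1:**
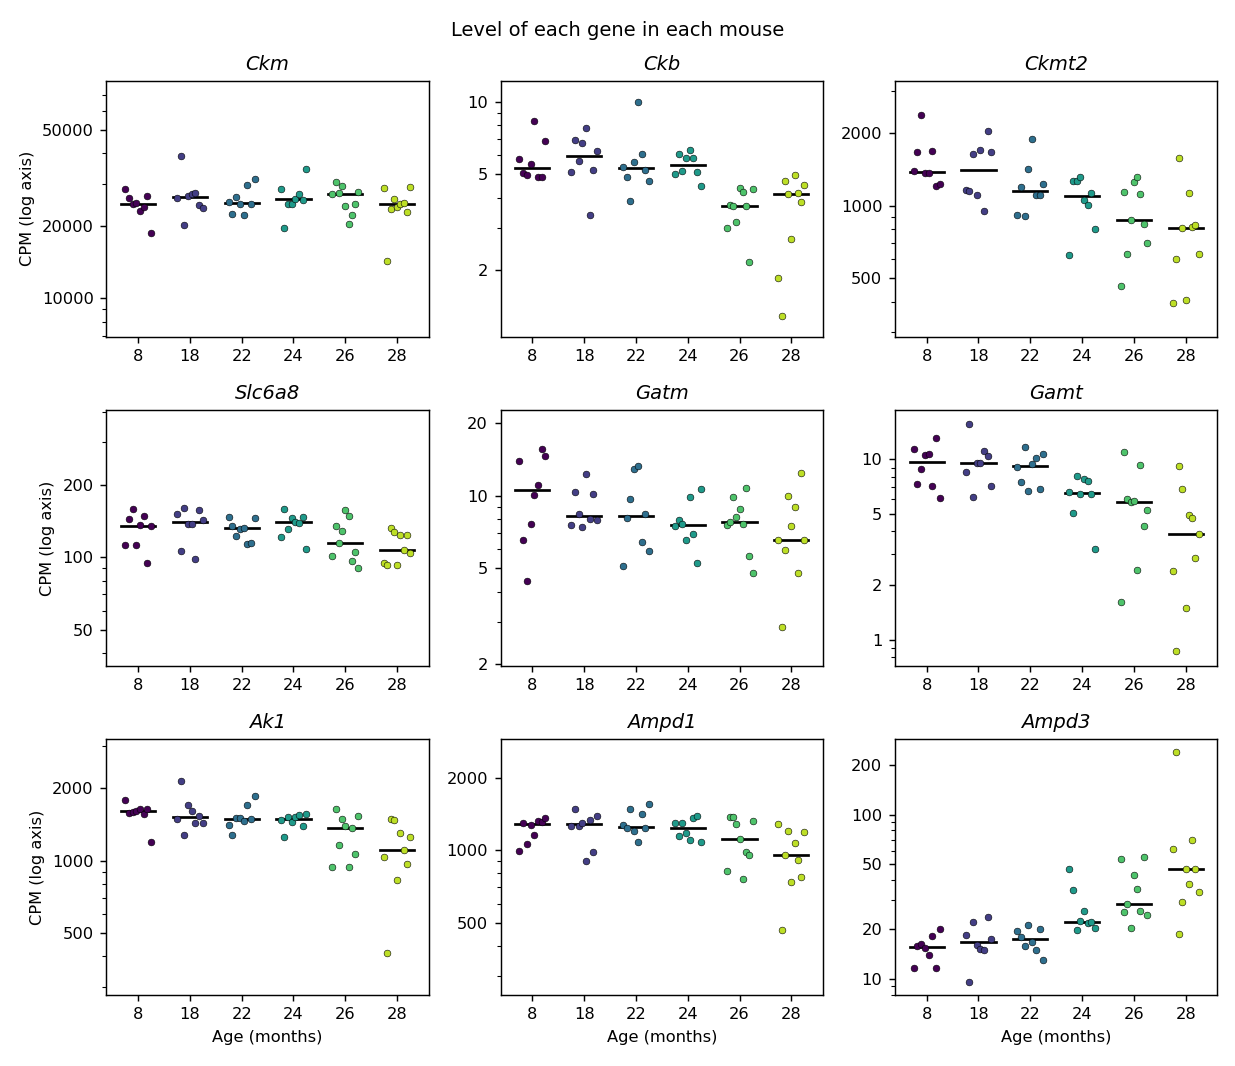
CPM of each gene (log axis, a different range per panel) in each of the 50 mice by age in months, with the median of the age as a bar. The Ampd3 median is highest and the Gamt, Ckmt2 and Ak1 medians are lowest at 28 months, and Ckm medians lie between 24690 and 27100 CPM, with a single 28 months-old mouse at 14280 CPM.

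Muscle creatine kinase Ckm (chr7:19404776-19422841, + strand) showed no change with age that could be told from the spread between mice. At 8 months the lowest, median and highest mice had 18710, 24780 and 28590 CPM, and at 28 months they had 14280, 24690 and 29110 CPM. The groups overlapped almost fully, and 6 of the 9 mice of 28 months lay within the range of 8 months. The log2 fold change of 28 against 8 months was -0.02 ± 0.11 (SE; 95% interval -0.24 to 0.20, FDR = 0.879, edgeR quasi-likelihood test), and its sign turned to 0.04 in limma on log2(TPM + 1) and, without replicate 1 of 8 months or replicate 2 of 28 months, to 0.01 and 0.05. Ckm alone made up 2.26% ± 0.18 (SD, n = 8) of all TPM at 8 months and 2.35% ± 0.33 (SD, n = 9) at 28 months.

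The mitochondrial form, Ckmt2 (chr13:91853387-91876885, - strand), fell with age. At 8 months the lowest, median and highest mice had 1208, 1386 and 2389 CPM. At 24 months they had 624.9, 1095 and 1317 CPM, and at 28 months 395.5, 812.1 and 1585 CPM. The 28 months-old mice were lower than the lowest 8 months-old mouse in 8 of 9 cases, and the exception, replicate 3, had the highest level of its age. Its log2 fold change was -0.94 ± 0.21 at 28 months (FDR = 0.000244) and -0.74 ± 0.21 at 26 months (FDR = 0.00639), against -0.54 ± 0.22 at 24 months (FDR = 0.158), which did not pass. The result at 26 months was not stable, since leaving out single mice (replicates 2, 3 and 6 of 8 months and 1, 3, 4, 8 and 9 of 26 months) took the FDR past 0.01 in 8 of 17 cases, up to 0.0243. Ckmt2 held 7.34% ± 1.82 (SD, n = 8) of the TPM of the 3 creatine kinase genes at 8 months and 4.07% ± 1.902 (SD, n = 9) at 28 months.

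The brain form, Ckb (chr12:111669361-111672338, - strand), was present at a low level and also fell. Its counts lay between 24 and 186 per library. At 8 months the lowest, median and highest mice had 4.88, 5.29 and 8.32 CPM, and at 24 months they had 4.46, 5.49 and 6.31 CPM. At 26 months they had 2.17, 3.71 and 4.39 CPM, and at 28 months 1.29, 4.13 and 4.95 CPM. The step lay between 24 and 26 months: all 9 mice of 26 months were below every 8 months-old mouse, as were 8 of 9 mice of 28 months. Against 8 months the log2 fold change was -0.68 ± 0.18 at 26 months (FDR = 0.00403) and -0.69 ± 0.18 at 28 months (FDR = 0.00141), but the step from 24 to 26 months itself did not pass (-0.60 ± 0.18, FDR = 0.0892). The 26-month call was lost without replicate 5 of 8 months or without replicate 1 or 8 of 26 months, with an FDR of at most 0.0136. Smooth muscle, fibroblasts and Schwann cells can also express Ckb. Of 7 fibroblast markers tested, 5 were lower and none higher at 28 months, and their sum ran from 760 to 1104 TPM at 8 months and from 614 to 845 TPM at 28 months. Of 7 smooth muscle markers, 4 were lower and 1, Des, which muscle fibers express as well, was higher, and with Des the sum ran from 2506 to 2974 TPM at 8 months and from 3199 to 4055 TPM at 28 months. Adipocyte markers were lower in 4 of 7 cases and higher in none, with a median log2 fold change of -1.11, and their sum, mostly Car3, which muscle fibers express as well, ran from 2292 to 3221 TPM at 8 months and from 1998 to 4031 TPM at 28 months. Of 6 endothelial markers 1 was lower and none higher. The part of these lists in the results for Ckb, Gatm and Gamt was not tested.

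Among the genes of creatine supply, the transporter Slc6a8 (chrX:73673150-73682502, + strand) did not pass the test. Its lowest, median and highest levels were 94.7, 134.8 and 158.4 CPM at 8 months and 92.8, 107.0 and 131.6 CPM at 28 months. All but 2 of the 9 mice of 28 months lay within the range of 8 months, and the log2 fold change was -0.23 ± 0.11 (95% interval -0.44 to -0.02, FDR = 0.0672). Gatm (chr2:122594467-122611303, - strand), which makes guanidinoacetate, did not pass either. It ran from 4.43 through a median of 10.6 to 15.7 CPM at 8 months and from 2.85 through 6.55 to 12.4 CPM at 28 months, and 8 of 9 mice of 28 months were within the range of 8 months. For Gatm the log2 fold change was -0.53 ± 0.22 (95% interval -0.95 to -0.11, FDR = 0.0348). It passed FDR 0.01 without replicate 3 of 8 months or without replicate 8 of 28 months, the lowest and the highest mouse of their ages.

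Gamt (chr10:80258151-80261012, - strand), the methyltransferase that completes creatine synthesis, fell. At 8 months the lowest, median and highest mice had 6.12, 9.70 and 13.2 CPM, and at 22 months they had 6.65, 9.22 and 11.7 CPM. At 24 months they had 3.16, 6.54 and 8.14 CPM, at 26 months 1.61, 5.78 and 10.9 CPM, and at 28 months 0.859, 3.87 and 9.22 CPM. The older groups thus reached far below the young range without leaving it, with 7 of 9 mice of 28 months below the lowest 8 months-old mouse and 2 within its range. Gamt had a log2 fold change of -1.19 ± 0.28 at 28 months (FDR = 0.000463) and of -0.71 ± 0.27 at 26 months (FDR = 0.0391), and the former was between -1.43 and -1.05 when single mice were left out. The coefficient of variation of Gamt was 26.2% at 8 months (n = 8) and 64.3% at 28 months (n = 9). Counts ran from 16 to 243 per library, so the lowest values carry a large counting error.

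The adenylate kinase gene Ak1 (chr2:32621758-32635058, + strand) fell at the oldest age. Its lowest, median and highest levels were 1196, 1604 and 1788 CPM at 8 months, 1249, 1496 and 1561 CPM at 24 months, 938.7, 1370 and 1635 CPM at 26 months and 413.3, 1110 and 1494 CPM at 28 months. In all, 5 of 9 mice of 28 months were below the lowest 8 months-old mouse, and 7 of 8 young mice were above the highest of 28 months. This gave a log2 fold change of -0.52 ± 0.14 (FDR = 0.00139) at 28 months and of -0.30 ± 0.14 (FDR = 0.0819) at 26 months. The call at 28 months held without each mouse in turn, but when the 8 and 28 months-old mice were fitted without the other ages the FDR was 0.0225 for Ak1 and 0.0144 for Ckb.

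The AMP deaminase genes of the set parted with age. Ampd1 (chr3:103074014-103099720, + strand) had 987.5, 1286 and 1360 CPM in the lowest, median and highest mice of 8 months and 466.9, 953.5 and 1288 CPM in those of 28 months. Of the 9 mice of 28 months, 5 lay below the young range. Its log2 fold change of -0.36 ± 0.13 (FDR = 0.0189) did not pass, although it did with upper-quartile factors (-0.40, FDR = 0.00986) and without replicate 1 or 4 of 28 months (FDR of at least 0.00690). Against 22 months, however, Ampd1 fell (-0.46 ± 0.13, FDR = 0.00447).

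Ampd3 (chr7:110768206-110812405, + strand) was the gene of the set that rose. The lowest, median and highest mice had 11.6, 15.6 and 20.04 CPM at 8 months, 9.57, 16.7 and 23.6 CPM at 18 months and 13.04, 17.3 and 21.4 CPM at 22 months. These 3 ages overlapped widely. At 24 months the same values were 19.8, 22.3 and 46.8 CPM, at 26 months 20.4, 28.6 and 55.0 CPM, and at 28 months 18.8, 46.55 and 239.9 CPM. Above the highest 8 months-old mouse were 7 of 8 mice at 24 months, 9 of 9 at 26 months and 8 of 9 at 28 months. The log2 fold change was 0.80 ± 0.30 at 24 months (FDR = 0.126), 1.17 ± 0.29 at 26 months (FDR = 0.00229) and 2.08 ± 0.30 at 28 months (FDR = 4.62e-07). Replicate 2 of 28 months stood apart at 239.9 CPM, where the next mouse had 70.4 CPM, and without it the log2 fold change at 28 months was 1.48 (FDR = 7.10e-07). Red blood cells and leukocytes also express this form. In replicate 2 of 28 months, the summed red cell markers were 588 TPM, the lowest of its age, where the other mice of 28 months reached 6304 TPM. The summed macrophage markers were 821 TPM in the same mouse, the highest of its age. The red cell sum of all mice ran from 901 to 3296 TPM at 8 months and from 588 to 6304 TPM at 28 months. Over the whole lists, 1 of 6 red cell markers and 7 of 10 macrophage markers tested were higher at 28 months and none was lower. The macrophage sum ran from 193 to 331 TPM at 8 months and from 304 to 821 TPM at 28 months. The part of red cells and of macrophages in the Ampd3 result was not tested, nor was their part in replicate 2 of 28 months.

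**Figure D2:**
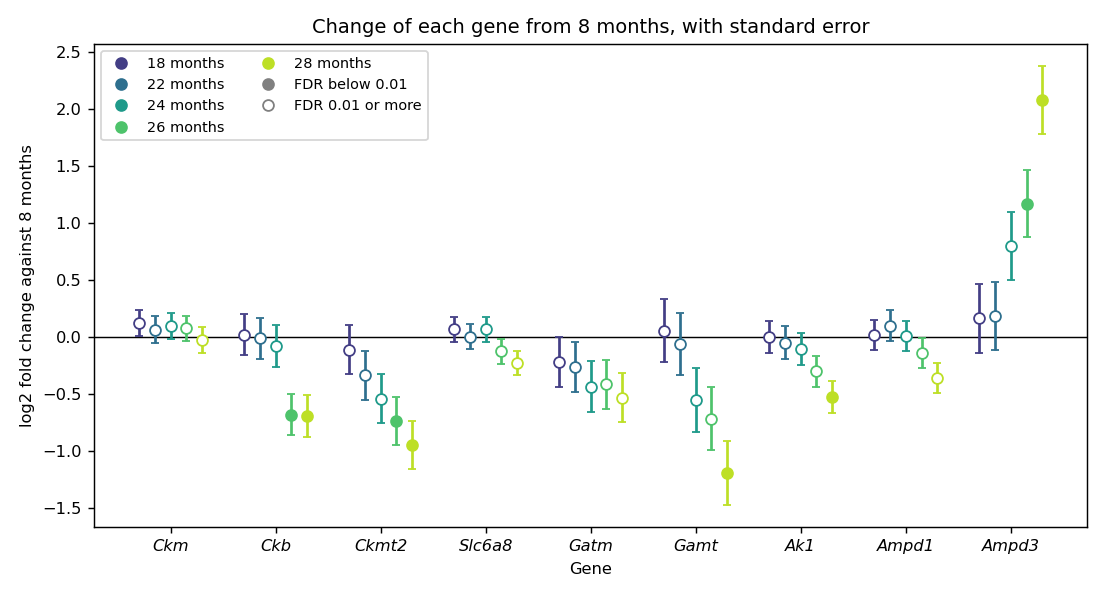
The log2 fold change of each gene at 18 to 28 months against 8 months (edgeR), with the standard error as bars and filled points for FDR below 0.01. All 5 filled points of 28 months and the 3 of 26 months lie in 5 genes, and no point of 18, 22 or 24 months is filled.

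To ask when the genes changed, each age was compared with 8 months. At 28 months 5 of 9 genes passed FDR 0.01, 1 higher and 4 lower, where 39.6% of all genes tested passed, 21.0% higher and 18.7% lower. Of the 9 log2 fold changes, 8 were below 0, with a median of -0.52, where the median of all genes was 0.01. At 26 months 3 of 9 passed, Ampd3 higher and Ckb and Ckmt2 lower, against 18.4% of all genes (9.84% higher and 8.54% lower). No gene passed at 24, 22 or 18 months, where 0.612% (0.318% higher and 0.294% lower), 0.0397% (all higher) and 0.0715% (0.0397% higher and 0.0318% lower) of all genes passed. DESeq2 and limma also called none at these ages, and an unadjusted p under 0.05 in edgeR was reached by 2 genes at 24 months, Ckmt2 and Ampd3, and by 0 at 22 and 18 months. The comparisons share the 8 months-old mice. Without replicate 1 or without replicate 8 of 26 months, 1 gene in place of 3 passed at 26 months, which was Ampd3. For any difference among the 6 ages, 5 genes passed (35.4% of all genes): Ampd3 (FDR = 6.84e-08), Ckb (FDR = 0.000284), Gamt (FDR = 0.000841), Ckmt2 (FDR = 0.000924) and Ak1 (FDR = 0.00526).

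None of the 9 genes had wholly separate ranges at 28 and 8 months, which 4.70% of all genes had. At 26 months Ckb and Ampd3 were wholly separate from 8 months, where 2.83% of all genes were. No gene of the set was at 24, 22 or 18 months, where 0.707%, 0.294% and 0.0795% of all genes were.

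Mice of 28 and 22 months had started the diet at the same age, though the older mice had eaten it for longer. Between them 5 of 9 genes passed where 27.7% of all genes did (16.2% higher and 11.5% lower). Ampd3 was higher (1.898 ± 0.296, FDR = 1.51e-05), and Gamt (-1.13 ± 0.28, FDR = 0.00143), Ckb (-0.68 ± 0.18, FDR = 0.00268), Ampd1 (FDR = 0.00447) and Ak1 (-0.48 ± 0.14, FDR = 0.00489) were lower. Ckmt2 did not pass here (-0.61 ± 0.21, FDR = 0.0169), with a median of 1152 CPM at 22 months (-0.33 ± 0.22 against 8 months, edgeR FDR = 0.686). Without replicate 8 of 22 months or without replicate 5 of 28 months the count was 3, because Ak1 and Ampd1 were lost. With these 2 ages alone in the fit Ampd3 passed by itself, where 1859 of all 12064 genes tested passed. Ckb was lost without replicate 5 of 22 months, Ak1 also without replicate 6 of 22 months, and Ampd1 also without replicate 3 of 22 months or replicate 2 or 8 of 28 months, while Ckmt2 passed without replicate 3 or 6 of 28 months. Over all genes, TMM factors gave 2033 higher and 1452 lower calls and upper-quartile factors 1494 and 1946, while the same number of the 9 genes passed. Between consecutive ages no gene of the set passed in any of the 5 steps with edgeR, DESeq2 or limma. The share of all genes that passed was 0.0715% from 8 to 18 months, 0.00795% from 18 to 22 months and 0.00% in each later step. An unadjusted p under 0.05 was reached by Ampd3 from 22 to 24 months (0.62 ± 0.30), by Ckb from 24 to 26 months and by Ampd3 from 26 to 28 months (0.91 ± 0.27).

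Ratios of related genes within a library were compared between 28 and 8 months (4 ratios, log2 of TPM + 1, exact permutation test over mice, two-sided, p-values adjusted over the 4). How often ratios of other genes separate as far between these ages was not tested. The ratios come from the same libraries as the tests of single genes above and are not independent of them. The ratio of Ampd3 to Ampd1 rose by 2.02 on the log2 scale (95% interval 1.13 to 3.04, exact p = 0.000123, adjusted p = 0.000494), and all 9 mice of 28 months were above all 8 mice of 8 months. Ampd3 made up 1.05% ± 0.12 (SD, n = 8) of the TPM of Ampd1 plus Ampd3 at 8 months. At 28 months the median share was 3.87%, with 30.3% in replicate 2. Without that mouse the rise in the ratio was 1.62. The ratio of Ckmt2 to Ckm changed by -1.01 (95% interval -1.62 to -0.40, exact p = 0.00226, adjusted p = 0.00302) and that of Ckb to Ckm by -0.63 (95% interval -1.05 to -0.22, exact p = 0.00111, adjusted p = 0.00222), each with 7 of 9 older mice below every young mouse. The ratio of Gamt to Gatm changed by -0.80 (95% interval -1.56 to -0.04, exact p = 0.0410, adjusted p = 0.0410). That last call was lost without any of 11 of the 17 mice (replicates 1, 2, 3, 4, 5 and 7 of 8 months and 1, 2, 5, 6 and 8 of 28 months), with values between -0.82 and -0.67 and adjusted p of at most 0.0818.

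**Figure D3:**
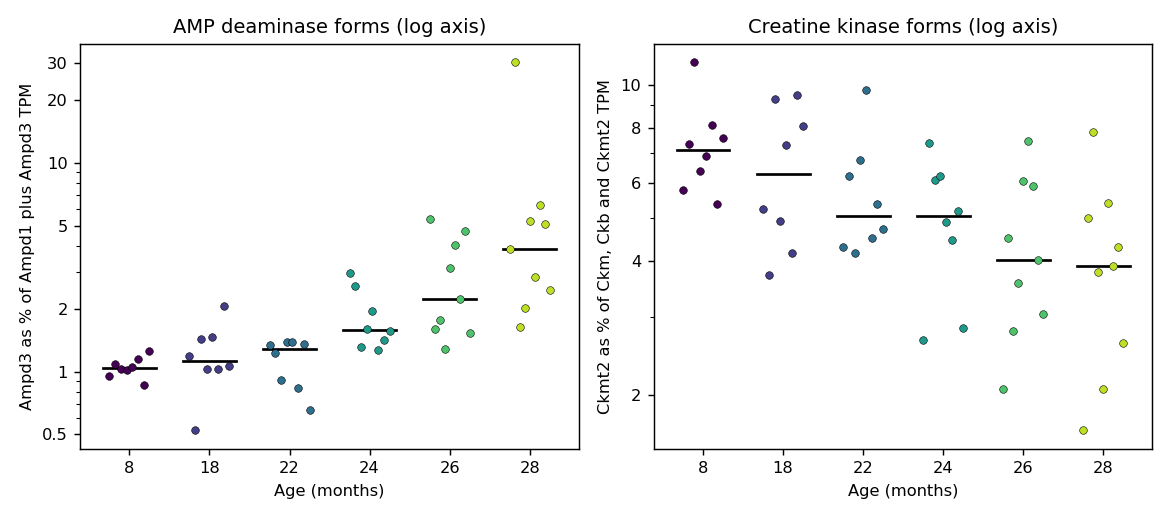
Ampd3 as a percentage of Ampd1 plus Ampd3 TPM (left) and Ckmt2 as a percentage of the TPM of the 3 creatine kinase genes (right) in each mouse by age in months, on log axes, with the median of the age as a bar. The Ampd3 share is above 1.6% in each mouse of 28 months and at or below 1.25% in each mouse of 8 months, while the Ckmt2 shares of the ages overlap.

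Levels of some genes of the set were related among mice of the same age. The rate of related pairs among other genes in these mice was not tested, so the count below cannot be set apart from variation shared by many genes. After the mean of the age was taken from each log2(TPM + 1) value, 16 of the 36 pairs of genes were related across the 50 mice by Pearson r (permutation test within ages, two-sided, adjusted p under 0.05 over the 36 pairs), 11 positively and 5 negatively. The rank correlation did not pass for Ckm with Ampd1, for Ckb with Gatm or Gamt, or for Ampd1 with Gamt or Ak1. The strongest was Ak1 with Gamt (Pearson r = 0.812, Spearman rho = 0.728, permutation p = 1e-05 and adjusted p = 0.00012 for both). This p is the lower limit of a test with 100000 permutations. Ak1 and Ampd3 varied in opposite directions (r = -0.807, p = 1e-05, adjusted p = 0.00012, rho = -0.625, p = 3e-05, adjusted p = 0.00027, permutation test). Without the 2 mice farthest from the median of Ak1 that r was -0.651, and without those farthest for Gamt the r of Ak1 with Gamt was 0.764. Mice low in Ak1 for their age were thus low in Gamt and high in Ampd3, and Gamt and Ampd3 were also opposed (r = -0.626, permutation p = 9e-05, adjusted p = 0.00081, rho = -0.543, permutation p = 0.00031, adjusted p = 0.00186, r = -0.49 without the 2 farthest mice). Ckmt2 and the transporter Slc6a8 went together (r = 0.668 and rho = 0.688, permutation p = 1e-05 and adjusted p = 0.00012 for each, r = 0.672 without the 2 farthest mice). Ckmt2 and Ckm were opposed (r = -0.509, permutation p = 0.00122, adjusted p = 0.00488, rho = -0.62, permutation p = 1e-05, adjusted p = 0.00012, r = -0.623 without the 2 farthest mice). Ampd1 and Ampd3 gave r = -0.41 (permutation p = 0.0278, adjusted p = 0.059) and rho = -0.255 (permutation p = 0.104, adjusted p = 0.209), and did not pass. Replicate 2 of 28 months, the lowest of its age in Ckm, Ckb, Gatm, Gamt, Ak1 and Ampd1 and the highest in Ampd3, weighed on these relations: 17 pairs reached the smallest r that passed with all mice, 0.385, and 10 did so without this mouse.

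The same deviations were set beside 4 marker lists, as the mean log2(TPM + 1) of each list, and 13 of 36 relations passed by r. How often other genes are related to these lists was not tested. Ckmt2 followed the genes of mitochondrial content closely (r = 0.966 and rho = 0.971, permutation p = 1e-05 and adjusted p = 9e-05 for each, r = 0.958 without the 2 farthest mice), and so, less closely, did Slc6a8 (r = 0.619 and rho = 0.631, permutation p = 1e-05 and adjusted p = 9e-05 for each, r = 0.604 without the 2 farthest mice). Ckm followed the fast fiber genes (r = 0.745, permutation p = 1e-05, adjusted p = 9e-05, rho = 0.651, permutation p = 3e-05, adjusted p = 0.000154, r = 0.635 without the 2 farthest mice). Ampd3 followed the denervation response genes (r = 0.536, permutation p = 0.0023, adjusted p = 0.00753, rho = 0.569, permutation p = 8e-05, adjusted p = 0.00036, r = 0.538 without the 2 farthest mice). Gatm was related to none of the 4 lists (r between -0.026 and 0.112, smallest adjusted p = 0.637, and rho between -0.2 and 0.189, smallest adjusted p = 0.294, permutation test). The lists themselves moved with age. At 28 months 9 of 11 denervation response genes tested were higher and none was lower, and their sum ran from 186 to 307 TPM at 8 months and from 361 to 934 TPM at 28 months. Of 15 genes of mitochondrial content 10 were lower and none higher, with sums between 16940 and 23490 TPM at 8 months and between 12910 and 20410 TPM at 28 months. Of 10 fast fiber genes 3 were higher and 2 lower, and of 9 slow fiber genes 1 was higher and none lower. The fast fiber sum at 28 months ran from 134000 TPM, in replicate 2, to 202000 TPM, and the slow fiber sum ran from 559 to 3099 TPM at 8 months and from 1080 to 4776 TPM at 28 months. No marker tested was at 0 in all mice. The part of these lists in the changes of the 9 genes was not tested.

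**Figure D4:**
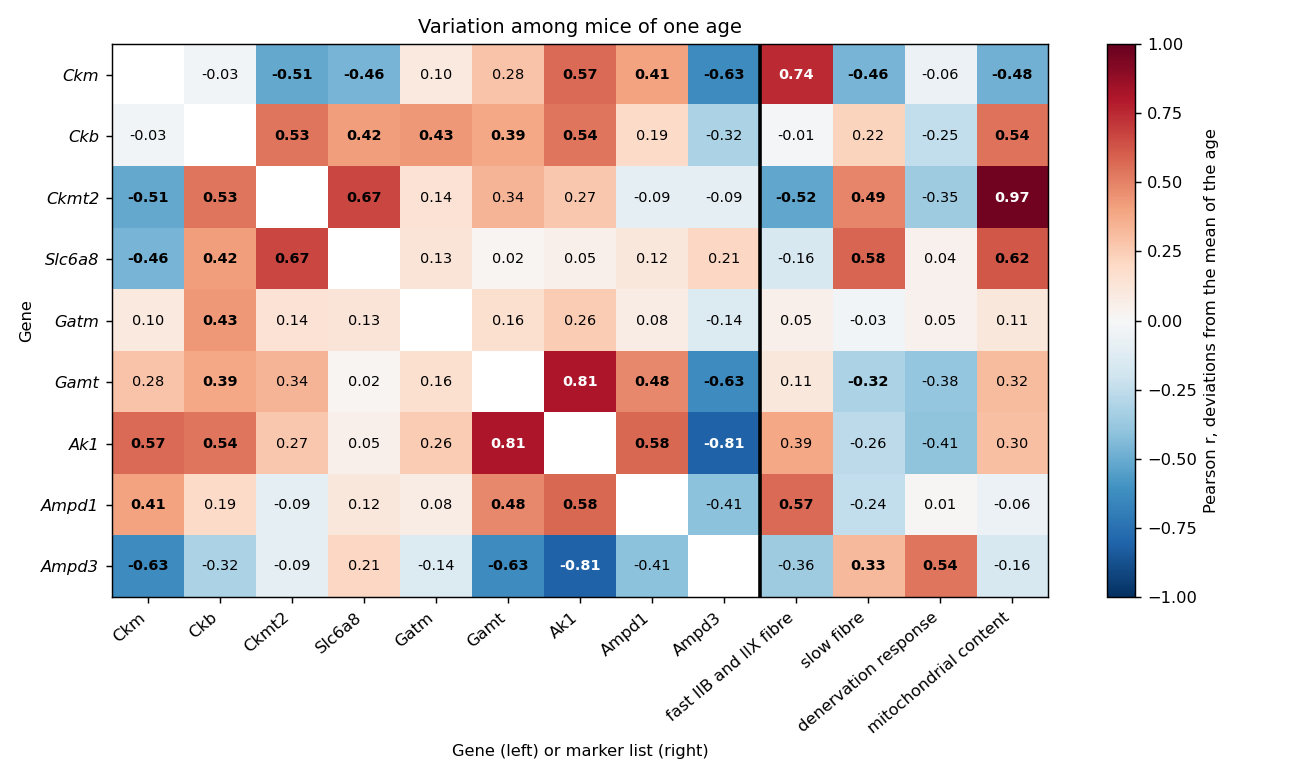
Pearson r across 50 mice between the genes (left of the line) and between each gene and 4 marker lists (right), after the mean of the age was taken from each value, with bold values past an adjusted p of 0.05. Ckmt2 and mitochondrial content share the highest value, 0.97, and Ak1 is linked to Gamt at 0.81 and to Ampd3 at -0.81.

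For each gene, the genes whose level was most like its own were sought among the 12586 by Spearman rho over the 50 mice, as a description. Gatm was most like Mbp (rho = 0.877), which encodes a protein of myelin, and within ages rho was 0.872. Of 8 Schwann cell markers 1, S100b, was lower at 28 months, none was higher and none was at 0 in all mice. The share of the Gatm level that came from nerve was not tested. Ckmt2 was most like Phyh (0.937), which acts in peroxisomes, and Coq10a (0.926), a mitochondrial coenzyme Q-binding protein. Ckm was most like the fast fiber gene Tnnt3 (0.847), a troponin, and Aldoa (0.808), of glycolysis. Ak1 was most like Ppm1j (0.929), a phosphatase, and Ap1s1 (0.903), Gamt was most like Dupd1 (0.884), a phosphatase, and Sh3bgr (0.878), and Slc6a8 was most like Akap1 (0.825), a kinase anchor of the mitochondrial surface, and Slco3a1 (0.805). Ampd1 was most like Golm1 (0.826) and Fut8 (0.781), and Ckb was most like Fam114a1 (0.780, and 0.58 within ages) and Pea15a (0.773, and 0.554 within ages). Ampd3 was most like Thrap3 (0.879, and 0.659 within ages) and Smcr8 (0.878, and 0.715 within ages).

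**Figure D5:**
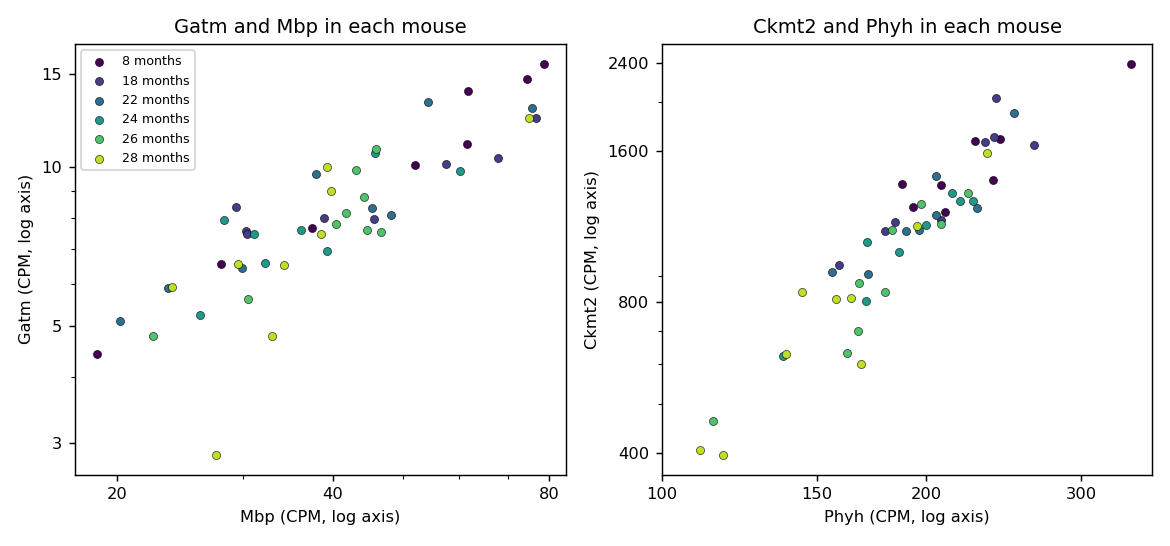
CPM of Gatm against Mbp (left) and of Ckmt2 against Phyh (right) in each of the 50 mice, on log axes, colored by age in months. In both panels mice of all ages lie along a single band, with rho of 0.877 and 0.937.

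The remaining genes of these pathways were counted at 28 against 8 months, where 21.0% of all genes rose and 18.7% fell at FDR 0.01 (edgeR). With upper-quartile factors 2249 genes were higher and 2760 lower, where TMM factors gave 2639 and 2349, and limma on log2(TPM + 1) gave 2767 and 1745. None of the genes that passed in these lists changed sign under those of the 8 other settings in which it was tested, but many were lost in at least 1 of them, most often with only these 2 ages in the fit. The calls that held in all settings were 2 of 3 in creatine handling, 2 of 3 adenylate kinases, 2 of 6 around the purine nucleotide cycle, 4 of 7 in purine synthesis, 1 of 3 mitochondrial partners, 2 of 4 of the AMP-activated protein kinase and 1 of 6 of the ATP-using pumps and their partners. Of 5 further genes of creatine handling, 2 rose and 1 fell. Oat, an ornithine aminotransferase, rose from 184 to 312 TPM (log2 fold change 0.68 ± 0.12), and Slc7a1, which carries arginine, by 0.54 ± 0.14. Slc16a12, a creatine transporter, had a log2 fold change of -1.07 ± 0.28 and was hardly present (0.633 TPM at 8 months and 0.307 TPM at 28 months). Among 4 further adenylate kinases none rose and 3 fell, led by Ak3 (-0.47 ± 0.07), which acts in mitochondria.

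Of 18 genes around the purine nucleotide cycle and AMP disposal, 2 rose and 4 fell. Gda, a guanine deaminase, rose by 1.08 ± 0.20 and the nucleotidase Nt5c2 by 0.38 ± 0.12. Ampd2, the third AMP deaminase gene, had a log2 fold change of -0.63 ± 0.16 and adenosine kinase (Adk) one of -0.52 ± 0.12. Of 16 genes of purine synthesis, 3 rose, led by Impdh2 (0.64 ± 0.11) and Gart (0.32 ± 0.07), and 4 fell, led by Guk1 (-0.67 ± 0.12) and Nme1 (-0.59 ± 0.14), kinases of guanine and other nucleotides. Of 9 mitochondrial partners that carry nucleotides, none rose and 3 fell, led by the ATP/ADP carrier Slc25a4 (-0.51 ± 0.10) and the pore gene Vdac1 (-0.30 ± 0.07).

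Of 10 genes of the AMP-activated protein kinase, which senses AMP, 3 rose and 1 fell. The catalytic subunit Prkaa2 rose by 0.45 ± 0.10 and the subunit Prkab1 by 0.30 ± 0.08, while Prkab2 had a log2 fold change of -0.39 ± 0.10. Of 11 genes of ATP-using pumps, M-band proteins and partner glycolytic enzymes, 4 rose and 2 fell. The M-band genes Myom1 (0.84 ± 0.12) and Myom2 (0.47 ± 0.11) led the rises, and the glycolytic enzymes Eno3 (-0.54 ± 0.14) and Pfkm (-0.34 ± 0.10) were the genes that fell.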

How the data were processed

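RNA of 50 gastrocnemius muscles was sequenced as stranded, polyA-selected libraries. The authors trimmed reads with Cutadapt 1.9.1 and quantified protein-coding transcripts with kallisto 0.43.1, then deposited 1 table of estimated counts per gene, which held whole numbers, and 1 table of TPM. From the deposited estimated counts, edgeR 4.0.16 (R 4.3.3) fitted TMM factors and a quasi-likelihood model over the 12586 genes that reached 1 CPM in 8 or more mice, with 1 mean per age over the 6 ages. Benjamini-Hochberg FDR 0.01 was the threshold, as two-sided tests. DESeq2 1.42.0, limma 3.58.1 on log2(TPM + 1) or log2(TPM + 0.1), upper-quartile factors, no filter, a filter of 5 CPM, a replicate block, a fit of 2 ages and leaving out each mouse were alternatives. Fold changes are log2, with the standard error. Ratios and relations used TPM with a pseudocount of 1 and SciPy 1.17.1. TMM-scaled CPM values are shown for each mouse.

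Ages were taken from the sample labels, which name each mouse as a replicate. Each of the 184 pairs of mice of the same age differed by at least 6.358 times the counting variance, and none was identical. In simulated counts for 28 against 8 months, 12518 genes were tested. Recovered were 56.7% of 67 genes changed 1.5-fold, 95.5% of 67 changed 2-fold and 100% of 66 changed 4-fold, with 1 false call. A far smaller share of genes changed there than the 39.6% that passed in the data, so these rates may not carry over. Symbols in more than 1 row (38) were taken from the row with the highest mean. Sharing of 31-mers with other genes was at most 0.618% for a gene of the set.

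The 9 genes and the lists were chosen with earlier results of these data known. Beyond them, a pathway list gave up to 2 names among genes that rose past FDR 0.01 and up to 2 among genes that fell, by size of change, and each of the 9 genes gave the names of the 2 genes most like it by Spearman rho. Des, Car3 and S100b were named after their values were seen. Some genes that this rule gives are not reported here.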

Additional observations from a re-analysis of the deposited data

Results flagged for a closer look

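In 6 of the 54 groups formed by a gene and an age, the highest or lowest mouse lay far from the others by Dixon's test, where chance flags about 1 in 20 groups, or 2.7 here. Of these, 2 belong to replicate 2 of 28 months. In this mouse Ckm was 14280 CPM, where the next lowest mouse of 28 months had 22750 CPM, and Ampd3 was 239.9 CPM, where the next highest had 70.4 CPM. Without this mouse the log2 fold changes at 28 against 8 months were 1.48 for Ampd3, -0.42 for Ak1, -1.05 for Gamt, -0.58 for Ckb and -0.90 for Ckmt2, and all 5 still passed.

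Ckm reached 38870 CPM in replicate 2 of 18 months, against 27370 CPM in the next mouse. Ckb reached 10.03 CPM in replicate 5 of 22 months, against 6.05 CPM. Ckmt2 reached 2389 CPM in replicate 3 of 8 months, against 1688 CPM. Ak1 was lowest in replicate 8 of 8 months at 1196 CPM, against 1559 CPM.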

How the results depend on the processing

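With only the 2 ages compared in the fit, 3 genes passed at 28 against 8 months and 1 at 28 against 22 months, from 5 each, with fewer mice to estimate the spread. Calls over all genes dropped as well, to 3396 of 12075 and 1859 of 12064, from 4988 and 3485 of 12586. With TMM-scaled CPM in place of TPM, the change in the ratio of Gamt to Gatm was -0.70 and did not pass (adjusted p = 0.0586, exact permutation test). Ckm, which passed under no setting, had log2 fold changes of 0.0416 with limma under both pseudocounts, 0.0112 without replicate 1 of 8 months and 0.0464 without replicate 2 of 28 months, and ran from -0.07 to 0.0464 with single mice left out.

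Leaving out single mice, 5 to 6 genes passed at 28 against 8 months, 1 to 3 at 18 to 26 against 8 months, 3 to 6 at 28 against 22 months, 4 to 5 for any age and 0 between consecutive ages. The ratio of Gamt to Gatm ran from -0.99 to -0.67. Pairs at or past the smallest r that passed numbered 10 to 17 (17 with all mice) and relations with marker lists 15 to 20 (18 with all mice), with 20 without replicate 9 of 28 months. The remaining values, 378 of those that answer a comparison, kept their direction and side of the threshold or stayed within 1.5 times the count.

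With the replicate number as a block, 6 genes passed at 28 against 8 months, Ampd1 among them (-0.41, FDR = 0.0095). The counts were 3 at 18 to 26 against 8 months and 5 at 28 against 22 months. For any age 5 passed, and between consecutive ages 0. Of all 12586 genes, 4954 passed at 28 against 8 months, 3451 at 28 against 22 months and 4267 for any age. In this setting the ratios changed by 2.12, -0.65, -0.95 and -0.83, all past the threshold. Deviations of mice with the same number had correlations from -0.607 to 0.43 (121 pairs, median 0.062, 52 pairs over 0.1). The median for mice with different numbers was -0.007. Whether the numbers mark a shared batch was not tested. Scaling moved the median of all genes by under 0.1. Ckb, Gatm and Gamt had few counts (lowest 24, 53 and 16), which limits small differences.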
